A study of Mus musculus with 12 samples.

Results

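MHC class II genes were described in cultured embryonic mouse lungs with and without mechanical restriction of growth. The set holds 7 genes of 24421 gene symbols measured: the class II chain genes H2-Eb1, H2-Ab1 and H2-Aa, the invariant chain gene Cd74, the transactivator gene Ciita, and H2-DMa and H2-DMb1, which encode the chains of the peptide editor H2-DM. They were chosen by the p-values of compressed against control lungs: H2-Eb1 was selected on having one of the smallest, and the other 6 genes were added as its pathway. Values of these genes in that comparison are therefore given as a description with no test, and the other comparisons reuse the same Day 2 libraries.

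RNA of whole lungs was measured by bulk sequencing in 12 libraries, 4 in each of 3 groups. All lungs came from wild-type CD-1 mice, an outbred stock, were taken from fetuses at embryonic day 12.5 and were kept in drops of Matrigel at an air-liquid interface. In the Day 2 compression group a 20% solution of PEG-HCC, a polyethylene glycol gel that hardens where a two-photon laser strikes it, was added on the following day (Day 0) and crosslinked around the lung, which restrained its growth for 2 days. In the Day 2 control group the same amount of solution was added and not crosslinked, and Day 0 lungs were taken at the start of that period. The controls thus carry the uncrosslinked solution, and the labels do not state whether Day 0 lungs had received it.

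MHC class II molecules are pairs of an alpha and a beta chain that present peptides from endosomes to CD4 T cells. H2-Aa and H2-Ab1 encode the chains of the A molecule, and H2-Eb1 the beta chain of the E molecule. The invariant chain Cd74 escorts newly made class II molecules to endosomes, where cathepsins degrade it and H2-DM exchanges its last fragment for peptide. Ciita switches these genes on together through a complex bound to the S, X and Y boxes of their promoters. The genes are most active in dendritic cells, B cells and macrophages, and in the postnatal lung also in alveolar type 2 cells.

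In the GRCm38 (mm10) assembly 5 of the 7 genes lie within 197.1 kb of chromosome 17. H2-DMa (34119541 to 34139101), H2-DMb1 (34153072 to 34160230), H2-Ab1 (34257689 to 34269419) and H2-Eb1 (34305867 to 34316674) are on the plus strand there, and H2-Aa (34282744 to 34287823) is on the minus strand. Ciita lies on chromosome 16 (10480059 to 10528418, plus strand) and Cd74 on another chromosome. Promoters of 4 of the 7 genes were read from RefSeq (GRCm38.p6, the C57BL/6J reference and not the CD-1 stock), as 300 bases each with 250 before the annotated start. Stretches from 130 to 21 bases before the start of 3 of them are shown because they hold the boxes through which class II genes are switched on together. Capitals mark matches to letters of 4 motifs, searched on both strands: the X core AACNGATG, the Y box GATTGG, the S core GGACC and the cyclic AMP response element TGACGTCA.
H2-Eb1 (chr17:34305737-34305846, plus strand): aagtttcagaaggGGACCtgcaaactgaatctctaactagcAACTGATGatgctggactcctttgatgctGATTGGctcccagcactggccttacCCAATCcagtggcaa
H2-DMb1 (chr17:34153061-34153170, plus strand): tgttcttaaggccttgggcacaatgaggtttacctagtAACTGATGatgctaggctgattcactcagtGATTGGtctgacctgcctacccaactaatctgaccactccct
H2-Aa (chr17:34287844-34287953, minus strand): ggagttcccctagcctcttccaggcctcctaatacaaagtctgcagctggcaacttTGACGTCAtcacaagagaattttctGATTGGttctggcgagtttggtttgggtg
In H2-Eb1 the X core began 89 bases and the Y box 60 bases before the start, with 21 bases between them, and an S core lay farther upstream. In H2-DMb1 the same pair began at 92 and 62 bases, with 22 bases between them. An X core followed by a Y box 15 to 25 bases on was found in 5 of 32851 mouse promoters (0.0152%). These belonged to H2-Eb1, H2-DMb1, the class II genes H2-Eb2 and H2-DMb2, and BC051142. H2-Aa had no X core with these letters, and held the cyclic AMP response element and a Y box, which began 74 and 49 bases before the start. In the H2-DMa promoters, of which 2 are listed, none of the pairs was found: the first start had an S core and the second a Y box that overlaps an S core. Alone, the X core was in 2.32% of promoters, the Y box in 16.1%, the S core in 45.5% and the cyclic AMP element in 1.79%. The motif letters were chosen with the promoters known, so class II genes among the 5 promoters are no independent support. These matches describe letters and say nothing of binding.

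**Figure D1:**
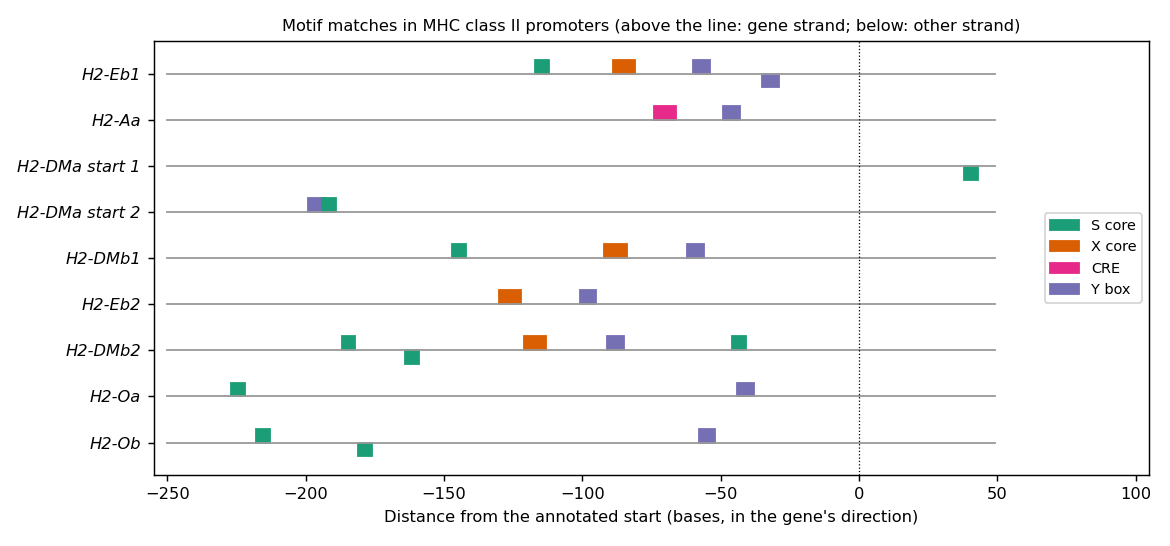
Positions of motif matches in RefSeq promoters of 8 class II genes, of which H2-DMa has 2 starts. The x axis is the distance from the annotated start in bases, with matches on the gene's strand above each line and on the other strand below. An X core with a Y box downstream is seen in H2-Eb1, H2-DMb1, H2-Eb2 and H2-DMb2.

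Total counts per library were 25680019 to 31739019 in Day 2 compression, 15452117 to 30805341 in Day 2 control and 13979871 to 33249761 at Day 0. Levels are in CPM, read counts divided by TMM-scaled library sizes, and a count of 0 in a library allows up to 3 counts, or 0.0899 to 0.214 CPM depending on the library. Floors cover counting error only. One control library, replicate 4, held liver transcripts: the summed level of 10 liver genes was 1965 CPM there and 62.8 to 74.6 CPM in the other 3 controls. Compression replicates 2 and 3 carry 1 number with different letters in the labels, and the labels do not say whether libraries come from separate animals, so p-values measure the spread between these libraries. Of 15246 genes tested for compression over control, edgeR called 0% at an adjusted p under 0.05 (lowest adjusted p = 0.0767), while 12.1% had an unadjusted p under 0.05 and DESeq2 called 69. Without control replicate 4 edgeR called 53 and without compression replicate 1 it called 19.

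Class II transcripts were scarce in every group, and all 7 genes had their highest mean level under compression. Of the 7 genes, 7 had a positive log2 fold change of Day 2 compression over Day 2 control, where 51% of all genes did, and in 5 the groups did not overlap, where 3.07% of all genes lay wholly higher. Because the genes were picked through this contrast, nothing is read from these counts. The median log2 fold change of the 7 genes was 1.27, against 0.00 over all genes tested. Over Day 0, edgeR called 6 of the 7 genes higher in Day 2 compression (26.6% of all genes, with 22.5% lower) and 2 higher in Day 2 control (22.6% of all genes, with 17.6% lower). The groups did not overlap in those 6 (23.5% of all genes lay wholly higher under compression than at Day 0). Of the 6, H2-Ab1, H2-Aa and Ciita passed the filter on low counts only through the compression group, on whose libraries the set was also selected, so the count is no independent support. The 2 genes called in Day 2 control were H2-Aa and Ciita, so that count is no independent support either. These comparisons share the Day 0 libraries.

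**Figure D2:**
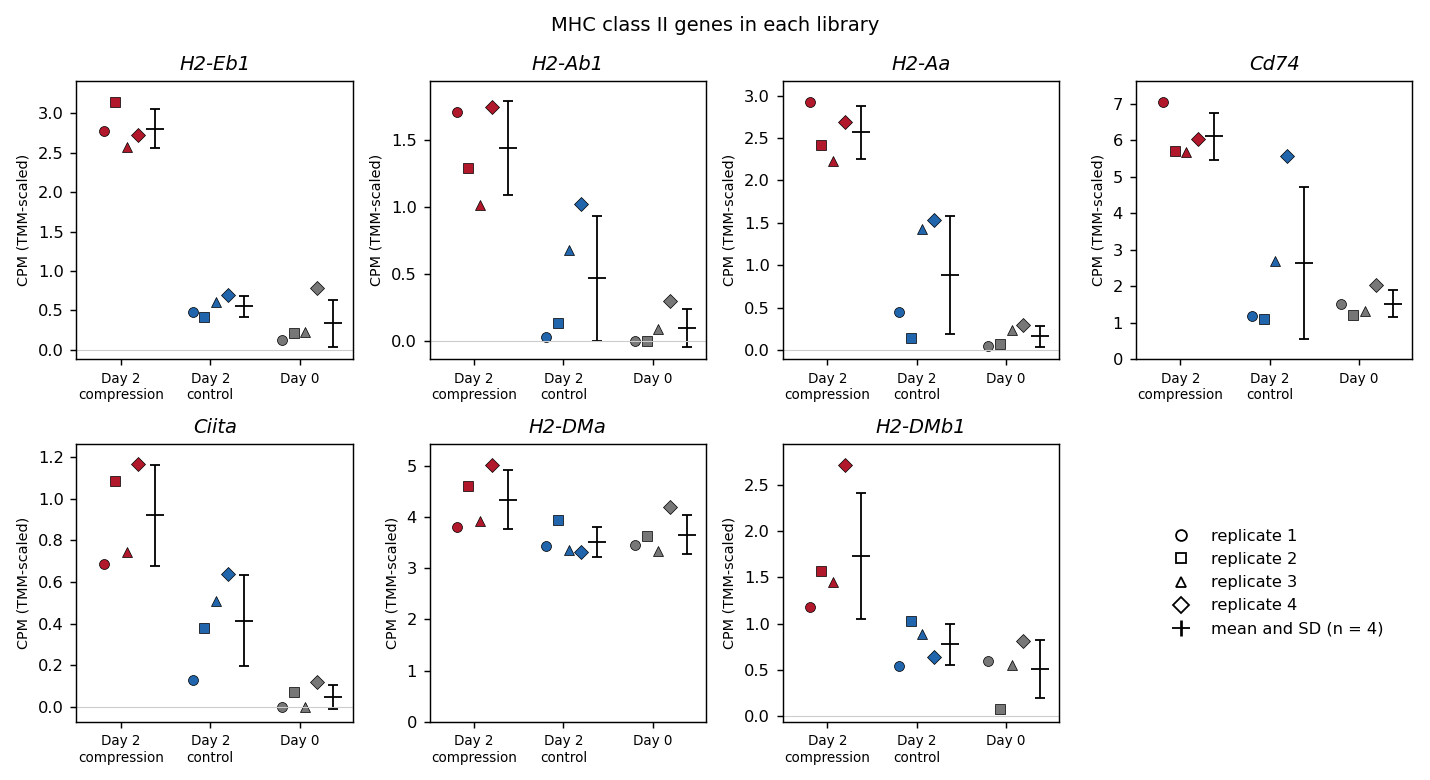
Level of each of the 7 genes in every library, in CPM with TMM-scaled library sizes (y axis, linear), with marker shape for the replicate number and the mean and SD of each group beside its points (n = 4). H2-Eb1 stands at 2.57 CPM or more in all 4 compression libraries and at 0.779 CPM or less in the other 8, while H2-DMa overlaps among the groups.

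H2-Eb1, the beta chain of the E molecule, had 2.78, 3.15, 2.57 and 2.72 CPM in Day 2 compression, 0.483, 0.412, 0.612 and 0.702 CPM in Day 2 control and 0.128, 0.214, 0.229 and 0.779 CPM at Day 0 (replicates 1 to 4). The compression libraries stood apart from all others, and the highest Day 0 library lay above every control. The level was 2.80 ± 0.246 CPM under compression, 0.552 ± 0.130 CPM in controls and 0.338 ± 0.298 CPM at Day 0 (SD, n = 4 each). The log2 fold change of compression over control was 2.36 (SE 0.37). Over Day 0 it was 2.91 for compression (SE 0.39, adjusted p = 4.79e-05) and 0.54 for control (SE 0.43, adjusted p = 0.342). Without Day 0 replicate 4, which held 26 of the 37 Day 0 counts, these values became 3.85 and 1.5, and control over Day 0 was then called (adjusted p = 0.00409).

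H2-Aa, the alpha chain of the A molecule, had 2.93, 2.41, 2.23 and 2.69 CPM in Day 2 compression, 0.451, 0.137, 1.43 and 1.53 CPM in Day 2 control and 0.0428, 0.0712, 0.229 and 0.300 CPM at Day 0. The 4 compression libraries lay above all controls, and 3 of 4 controls lay above all Day 0 libraries. Controls fell into a low and a high pair, replicates 1 and 2 against 3 and 4. The log2 fold change of compression over control was 1.59 (SE 0.52). H2-Aa rose over Day 0 both under compression (3.82, SE 0.63, adjusted p = 2.70e-04) and in controls (2.23, SE 0.68, adjusted p = 0.0178). These tests were run only because the compression libraries carried H2-Aa past the filter on low counts. The control call was lost without Day 0 replicate 1 (adjusted p = 0.0520) or without control replicate 3 (0.0653).

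H2-Ab1, its partner chain, had 1.71, 1.29, 1.01 and 1.75 CPM in Day 2 compression, 0.0322, 0.137, 0.680 and 1.02 CPM in Day 2 control and 0, 0, 0.0917 and 0.300 CPM at Day 0. The lowest compression library lay just under the highest control, so these groups overlapped, and 3 of 4 compression libraries lay above all controls. The log2 fold change of compression over control was 1.76 (SE 0.69), and 2.35 without control replicate 4. H2-Ab1 rose under compression over Day 0 (3.51, SE 0.83, adjusted p = 0.00351), and the value was 5.21 without Day 0 replicate 4, which held 10 of the 12 Day 0 counts. As with H2-Aa, only the compression libraries carried H2-Ab1 past the filter on low counts. Control over Day 0 was 1.75 (SE 0.93, adjusted p = 0.152). It was called without Day 0 replicate 4 (3.46, adjusted p = 0.0447) or without control replicate 1 (2.19, adjusted p = 0.0496), and stood at 1.15 without control replicate 4.

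Cd74, the invariant chain, had 7.04, 5.70, 5.68 and 6.02 CPM in Day 2 compression, 1.19, 1.1, 2.69 and 5.56 CPM in Day 2 control and 1.5, 1.21, 1.33 and 2.04 CPM at Day 0. The controls spread widely: replicate 4, the library with liver transcripts, came close to the lowest compression library, while replicates 1 and 2 lay below all Day 0 libraries. The log2 fold change of compression over control was 1.27 (SE 0.40), and 1.89 without that library. Cd74 rose under compression over Day 0 (1.98, SE 0.41, adjusted p = 0.00154). Control over Day 0 was 0.71 (SE 0.42, adjusted p = 0.203), and 0.08 without control replicate 4.

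Ciita, the transactivator, had 0.685, 1.08, 0.743 and 1.17 CPM in Day 2 compression, 0.129, 0.377, 0.510 and 0.639 CPM in Day 2 control and 0, 0.0712, 0 and 0.120 CPM at Day 0. The 3 groups did not overlap, and the highest control came close to the lowest compression library. It was the 1 gene of the 7 in which controls lay wholly above Day 0, as 20.4% of all genes did. The log2 fold change of compression over control was 1.22 (SE 0.46). Ciita rose over Day 0 under compression (4.01, SE 0.64, adjusted p = 1.89e-04) and in controls (2.79, SE 0.71, adjusted p = 0.00661). These tests, too, were run only because the compression libraries carried Ciita past the filter on low counts. The Day 0 group held 5 counts in all, 4 of them in replicate 4, and without that library the values were 5.38 and 4.17.

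H2-DMb1, a beta chain of H2-DM, had 1.18, 1.57, 1.45 and 2.72 CPM in Day 2 compression, 0.547, 1.03, 0.884 and 0.639 CPM in Day 2 control and 0.599, 0.0712, 0.550 and 0.809 CPM at Day 0. The compression libraries lay above all others and replicate 4 was the highest, while controls and Day 0 overlapped. The log2 fold change of compression over control was 1.15 (SE 0.40). H2-DMb1 rose under compression over Day 0 (1.66, SE 0.42, adjusted p = 0.00468), and control over Day 0 was 0.51 (SE 0.44, adjusted p = 0.374). It shares 22.7% of its 50-base words with other genes, all of these with its neighbour H2-DMb2, so its counts are uncertain to that extent.

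H2-DMa, the alpha chain of H2-DM, had the smallest fold changes of the 7 genes in each comparison. It had 3.80, 4.62, 3.92 and 5.02 CPM in Day 2 compression, 3.44, 3.95, 3.36 and 3.32 CPM in Day 2 control and 3.47, 3.63, 3.35 and 4.19 CPM at Day 0, and the 3 groups overlapped. Its log2 fold change was 0.30 for compression over control (SE 0.15), 0.24 for compression over Day 0 (SE 0.15, adjusted p = 0.189) and -0.06 for control over Day 0 (SE 0.15, adjusted p = 0.789). Exons of H2-DMa share 10.4% of their length with Brd2 on the opposite strand, whose reads cannot be told apart where counting ignores strand.

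**Figure D3:**
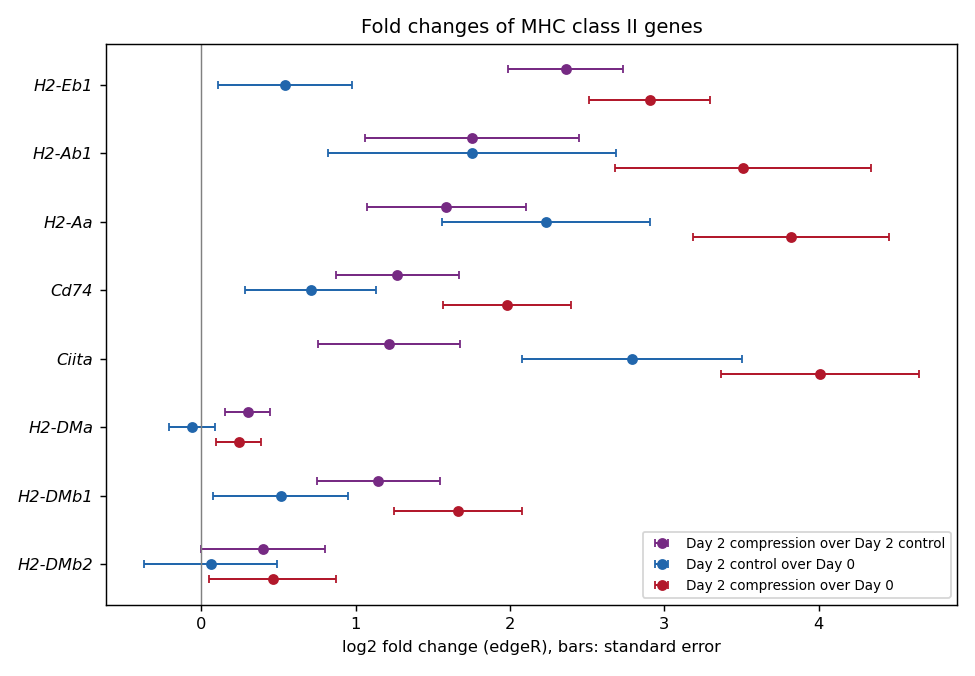
Log2 fold changes of the 7 genes and of H2-DMb2 from the edgeR fit (x axis), with bars for the standard error and a colour for each of 3 comparisons. Compression over Day 0 is 1.66 or more for 6 genes and 0.24 for H2-DMa.

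Levels of different genes were compared per kilobase of exon. Under compression Cd74 was highest (3.64 ± 0.380 CPM per kb), followed by H2-Eb1 (1.44 ± 0.127), H2-DMa (1.26 ± 0.168), H2-DMb1 (1.03 ± 0.404), H2-Aa (0.675 ± 0.0808), H2-Ab1 (0.561 ± 0.137) and Ciita (0.0964 ± 0.0253). Among neighbours in this order, the libraries of Cd74 and H2-Eb1 and those of H2-Ab1 and Ciita did not overlap, and the other neighbours did. In controls the order was Cd74 (1.57 ± 1.24 CPM per kb), H2-DMa (1.02), H2-DMb1 (0.461), H2-Eb1 (0.284), H2-Aa (0.234), H2-Ab1 (0.182) and Ciita (0.0434), and only H2-DMa and H2-DMb1 separated as neighbours. At Day 0 H2-DMa was highest (1.06 ± 0.109 CPM per kb), with Cd74 at 0.904, H2-DMb1 at 0.302, H2-Eb1 at 0.174, H2-Aa at 0.0423, H2-Ab1 at 0.0381 and Ciita at 0.00501, and only Cd74 and H2-DMb1 separated. By mean level H2-Eb1 thus stood next to Cd74 under compression and below both H2-DM genes in the other groups. Its libraries overlapped those of H2-DMa under compression and those of H2-DMb1 in the other groups. H2-Eb1 was selected on compression against control, so nothing is read from this change of order. Even under compression, only 25% of tested genes had a lower mean CPM than Cd74 and 17.5% a lower one than H2-Eb1.

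Within the set, levels moved together most closely over the 12 libraries for 5 genes. The 10 pairs among H2-Eb1, H2-Ab1, H2-Aa, Cd74 and Ciita had a Pearson r of log2 CPM of 0.82 to 0.946, and of 0.749 to 0.958 over the 8 Day 2 libraries. The 5 pairs of H2-DMb1 with these genes had r = 0.651 to 0.758 and the 6 pairs with H2-DMa 0.402 to 0.686 over the 12 libraries. Over the 8 Day 2 libraries the ranges were 0.512 to 0.8 and 0.326 to 0.92. The highest of these was H2-DMa with H2-DMb1, and the ranges overlapped that of the 10 pairs. These are descriptions of libraries that share group, depth and culture.

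Other class II genes were low or near the floor. H2-DMb2, the second beta chain gene of H2-DM, had 0.699 ± 0.264 CPM under compression, 0.539 ± 0.175 CPM in controls and 0.483 ± 0.272 CPM at Day 0 (SD, n = 4 each), with adjusted p-values of 0.679 for compression over control, 0.366 for compression over Day 0 and 0.925 for control over Day 0. H2-Oa, which encodes a chain of an inhibitor of H2-DM, held 18, 16 and 11 counts in the compression, control and Day 0 groups. H2-Eb2 held 1 count and H2-Ob 2 counts in all 12 libraries. H2-Ea, the alpha chain that pairs with H2-Eb1 and is listed as the pseudogene H2-Ea-ps, held 30 counts (0.971 CPM) in compression replicate 4, 6 counts (0.180 CPM) in Day 0 replicate 4 and 0 in the other 10 libraries. In strains of the b haplotype, among them the one sequenced for the reference genome, H2-Ea carries a deletion in its promoter. H2-Eb1 transcripts were thus counted in 10 libraries with no H2-Ea-ps count.

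Factors that act on class II promoters had small fold changes of compression over control. Of 16 tested genes of class II transcription (the X box and Y box complexes, interferon gamma receptors and regulators of Ciita), 1 was called higher and 3 lower in Day 2 control over Day 0, and 2 higher and 3 lower in Day 2 compression over Day 0. Of all genes, 22.6% were called higher and 17.6% lower in control over Day 0, and 26.6% higher and 22.5% lower in compression over Day 0. None was called for compression over control. The median log2 fold change of compression over control was 0.02 and the range -0.19 to 0.57. The largest was that of Spi1, a transcription factor of myeloid and B cells (0.57, SE 0.22, adjusted p = 0.380), followed by Irf8, another such factor (0.42, SE 0.17, adjusted p = 0.380). Interferon gamma is the classical inducer of Ciita, and its gene Ifng held 1 count in all 12 libraries. Its receptor gene Ifngr2 rose over Day 0 under compression (0.38, adjusted p = 0.00161), with 0.20 for compression over control (adjusted p = 0.380). The part of interferon gamma in the class II levels was not tested.

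Genes of endosomal processing, a list that includes general lysosomal cathepsins and genes of class II turnover, rose over culture. All 11 tested genes were called higher in Day 2 compression over Day 0, where 26.6% of all genes were, and 10 in Day 2 control over Day 0, where 22.6% of all genes were. For compression over control 11 of 11 were positive (median 0.33) and none was called. Ctsh, a cathepsin that type 2 cells also make, stood at 128 ± 29.4 CPM under compression, 75.8 ± 15.2 CPM in controls and 17.3 ± 6.01 CPM at Day 0, with log2 fold changes over Day 0 of 2.87 under compression (adjusted p = 2.55e-06) and 2.11 in controls (adjusted p = 2.99e-05). Ifi30, the endosomal thiol reductase, stood at 59.6 ± 5.62 CPM under compression, 47.0 ± 5.5 CPM in controls and 35.6 ± 3.51 CPM at Day 0 and was called over Day 0 under compression (adjusted p = 3.83e-05) and in controls (adjusted p = 0.00531). Lgmn, the protease that starts invariant chain breakdown, was called over Day 0 under compression (0.55, adjusted p = 4.68e-04) and not in controls (0.17, adjusted p = 0.180), a difference that had an adjusted p of 0.309 when compression was set against control directly.

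Of 7 tested genes of co-stimulation and adhesion, 5 were called higher in Day 2 compression over Day 0 (26.6% of all genes) and 4 in Day 2 control (22.6% of all genes). Cd274, which encodes the checkpoint ligand PD-L1, stood at 6.67 ± 0.407 CPM under compression, 4.68 ± 0.586 CPM in controls and 1.67 ± 0.482 CPM at Day 0 (adjusted p = 0.365 for compression over control). Cd86, a ligand of CD28, stood at 2.44 ± 0.808, 1.54 ± 0.318 and 1.59 ± 0.267 CPM in compression, control and Day 0 lungs (adjusted p = 0.377 for compression over control). Of 21 tested genes of class I presentation and interferon response, 14 were called higher in Day 2 compression over Day 0 and 8 in Day 2 control, with none lower, beside the same shares of all genes. For compression over control 19 of 21 were positive (median 0.77) and edgeR called none. B2m, the light chain of class I, stood at 167 ± 31.3 CPM under compression, 124 ± 9.59 CPM in controls and 79.5 ± 2.45 CPM at Day 0. The peptide transporter gene Tap2 stood at 6.43 ± 0.644, 3.79 ± 0.962 and 1.88 ± 0.353 CPM in compression, control and Day 0 lungs. DESeq2 called both for compression over control (adjusted p = 0.0270 for B2m and 0.0169 for Tap2). The sum of this list was highest in compression replicate 1 (681 CPM, against 490 to 519 CPM in the other 3), with the interferon regulator Irf7 at 13.3 CPM there and 1.46 to 2.66 CPM in the other 3. Among the compression libraries, H2-Aa and Cd74 were highest in that one, Ciita, H2-DMa and H2-DMb1 were lowest in it, and H2-Eb1 and H2-Ab1 were neither.

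Markers of macrophages were also highest under compression. The summed level of 19 macrophage and leukocyte genes was 653, 667, 670 and 543 CPM in Day 2 compression, 363, 400, 417 and 639 CPM in Day 2 control and 297, 320, 315 and 357 CPM at Day 0. Compression lay above controls except for control replicate 4, which was within its range. All 19 were positive for compression over control (median log2 fold change 0.39) and edgeR called none, while 11 had an unadjusted p under 0.05 (12.1% of all genes). Over Day 0, 12 of the 19 were called higher under compression (26.6% of all genes) and 6 in controls (22.6% of all genes). Itgam, an integrin chain of myeloid cells, stood at 16.8 ± 2.75 CPM under compression, 6.93 ± 5.27 CPM in controls and 3.07 ± 0.564 CPM at Day 0 (adjusted p = 0.309 for compression over control). Without control replicate 4 its log2 fold change was 1.95 (adjusted p = 0.00605). In bulk RNA more cells of a type and more RNA per cell cannot be told apart.

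The 3 class II chains and Cd74 were also set against that sum. Their summed level was 14.4, 12.5, 11.5 and 13.2 CPM in Day 2 compression, 2.16, 1.78, 5.40 and 8.81 CPM in Day 2 control and 1.67, 1.5, 1.88 and 3.41 CPM at Day 0. As a share of the macrophage sum this was 2.21, 1.88, 1.71 and 2.43% under compression, 0.594, 0.446, 1.30 and 1.38% in controls and 0.561, 0.468, 0.597 and 0.955% at Day 0. The compression libraries lay above the other 8 on this share, which includes H2-Eb1, the gene selected on this contrast. H2-Eb1 was the 1 gene of the 7 whose compression libraries lay above all others on this measure, at 0.383 to 0.501% of the macrophage sum under compression, 0.103 to 0.147% in controls and 0.0432 to 0.218% at Day 0. Its selection on these same libraries favours such a separation, so nothing is read from it. The other 6 overlapped with controls. Cd74 had 0.847 to 1.11% under compression and 0.275 to 0.869% in controls, H2-Aa 0.333 to 0.495% under compression and 0.0343 to 0.342% in controls, and H2-Ab1 0.151 to 0.322% under compression and 0.00886 to 0.163% in controls. Ciita had 0.105 to 0.215% under compression and 0.0354 to 0.122% in controls, and H2-DMb1 0.181 to 0.501% under compression and 0.0999 to 0.257% in controls. H2-DMa was highest at Day 0 on this measure, with 0.582 to 0.925% under compression, 0.520 to 0.987% in controls and 1.06 to 1.17% at Day 0. The part of macrophage number in the class II levels was not tested.

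**Figure D4:**
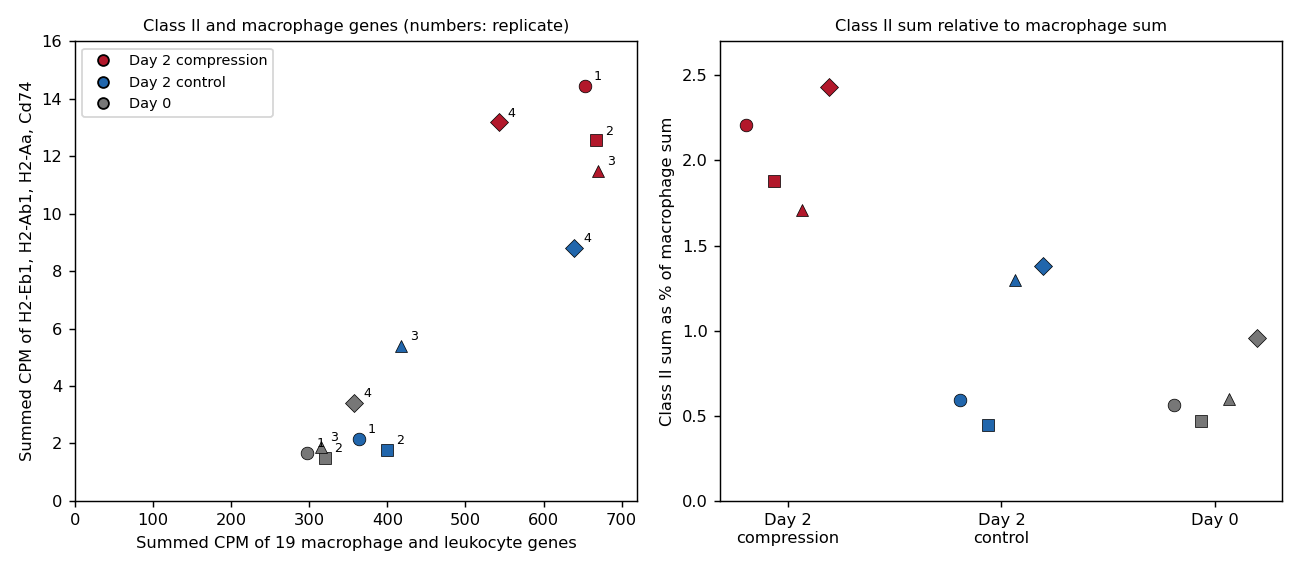
Summed CPM of H2-Eb1, H2-Ab1, H2-Aa and Cd74 against the summed CPM of 19 macrophage and leukocyte genes (left, 1 point per library, replicate number beside it), and the class II sum as a percentage of the macrophage sum in each library (right). The 4 compression libraries lie at 1.71 to 2.43% and the other 8 at 0.446 to 1.38%.

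Monocyte genes were low and their fold changes of compression over control were positive. The summed level of 8 such genes was 18.6, 5.21, 6.72 and 10.7 CPM in Day 2 compression, 3.35, 1.58, 2.41 and 6.38 CPM in Day 2 control and 3.77, 11.9, 3.16 and 3.06 CPM at Day 0, so that the groups overlapped. All 4 that could be tested were positive for compression over control (median log2 fold change 1.79), and none was called. Plac8, a gene of monocytes and other myeloid cells, had 11.8, 2.48, 3.18 and 2.62 CPM in Day 2 compression, 0.837, 0.686, 1.53 and 3.77 CPM in Day 2 control and 2.35, 4.2, 2.61 and 2.76 CPM at Day 0 (compression over control 1.64, SE 0.60, adjusted p = 0.376). The part of monocytes in the class II levels was not tested.

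Among markers of T cells and innate lymphoid cells, 4 of 10 could be tested, Ncr1 had no count in any library and none was called for compression over control (median 0.19, 3 of 4 positive). Their sum was 29.1 to 32.3 CPM under compression, 19.8 to 32.3 CPM in controls and 6.46 to 9.91 CPM at Day 0. Of 12 dendritic cell genes 5 could be tested, and 2 (Xcr1 and Klrd1) had no count in any library. Over Day 0, 1 of the 5 was called higher and 2 lower under compression, and likewise in controls. Of all genes, 26.6% were higher and 22.5% lower under compression, and 22.6% and 17.6% in controls. The list summed to 195 to 271 CPM under compression, 170 to 240 CPM in controls and 316 to 366 CPM at Day 0. Fscn1, most of that sum, fell over Day 0 under compression (-0.71, adjusted p = 1.06e-04) and in controls (-0.79, adjusted p = 6.51e-05). Itgax, which encodes CD11c and is shared with alveolar macrophages, rose over Day 0 under compression (4.95, adjusted p = 0.00221) and in controls (3.84, adjusted p = 0.0126). It varied from library to library, with 0.761, 18.2, 18.5 and 14.1 CPM in Day 2 compression and 2.09, 3.60, 3.74 and 15.5 CPM in Day 2 control. Clec10a, a lectin gene of dendritic cells and macrophages, fell in controls over Day 0 (-2.05, adjusted p = 0.00134) and stood at 0.587 ± 0.171 CPM under compression, 0.244 ± 0.158 CPM in controls and 0.946 ± 0.259 CPM at Day 0. Flt3, a receptor of dendritic cell precursors, held 3, 4 and 4 counts in the compression, control and Day 0 groups. Of 8 B cell genes, Ms4a1, Pax5 and Blk had no count in any library. The summed level of the B cell list was 3.53 to 4.73 CPM under compression, 2.03 to 4.21 CPM in controls and 4.56 to 15 CPM at Day 0. Most of the Day 0 sum was Ebf1, with a mean of 7.21 CPM there, 2.03 CPM under compression and 1.43 CPM in controls. Cd22 went the other way and rose over Day 0 under compression (1.58, adjusted p = 0.00693) and in controls (1.36, adjusted p = 0.0220). Cd79b was called in neither (adjusted p = 0.0551 under compression and 0.289 in controls).

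Genes of alveolar type 2 cells also had higher levels under compression, and the range of their sum overlapped that of controls. The summed level of 12 such genes was 1317 to 2240 CPM in Day 2 compression, 920 to 1421 CPM in Day 2 control and 428 to 673 CPM at Day 0. All 11 that could be tested were positive for compression over control (median 1.16, 8 with an unadjusted p under 0.05, as 12.1% of all genes had) and none was called. Slc34a2, a phosphate transporter, had 16.4, 64.2, 66.6 and 39.6 CPM under compression, 1.93, 2.37, 13.4 and 12.6 CPM in controls and 0.128, 0, 0.321 and 1.5 CPM at Day 0. It rose over Day 0 under compression (6.24, adjusted p = 4.30e-04) and in controls (3.57, adjusted p = 0.0174). Sftpc, the surfactant protein C gene, stood at 1020 ± 255 CPM under compression, 574 ± 136 CPM in controls and 72.9 ± 23.0 CPM at Day 0 (adjusted p = 0.321 for compression over control). Whether type 2 cells or macrophages hold the class II transcripts was not tested. Of 12 genes of lung epithelium, mesenchyme and endothelium, which summed to 1733 to 1857 CPM under compression, 1676 to 1787 CPM in controls and 1571 to 1721 CPM at Day 0, none was called for compression over control. Over Day 0 they went both ways, with 4 called higher and 5 lower under compression and 5 higher and 5 lower in controls. The shares over all genes were 26.6% higher and 22.5% lower under compression, and 22.6% and 17.6% in controls. The epithelial cadherin gene Cdh1 stood at 431 ± 9.06 CPM under compression, 432 ± 31.9 CPM in controls and 213 ± 29.6 CPM at Day 0, and the endothelial gene Pecam1 at 13.3 ± 2.71, 12.4 ± 4.14 and 63.1 ± 11.3 CPM in compression, control and Day 0 lungs.

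Among 13184 other genes, all averaging 1 CPM or more and none with a predicted name, the 8 whose levels were most like the mean of the 7 class II genes over the 12 libraries were Tor4a (Pearson r = 0.968), Ccl4 (0.962), Ccl3 (0.958), Myh7 (0.950), P2rx4 (0.949), Slc34a2 (0.946), Arpc1b (0.942) and Loxl1 (0.939). Over the 8 Day 2 libraries alone their r ranged from 0.892 to 0.968. Ccl3 and Ccl4 encode chemokines made by macrophages, and Ccl3 stood at 7.95 CPM under compression, 3.31 CPM in controls and 2.10 CPM at Day 0 (means, n = 4 each). The other 6 include a phosphate transporter of type 2 cells (Slc34a2), a purine receptor (P2rx4), a myosin heavy chain of slow and heart muscle (Myh7) and an enzyme of elastin crosslinking (Loxl1). These coefficients come from groups that differ in many genes and are given as a description.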

How the data were processed

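The authors deposited 1 table of read counts per gene symbol, with 1 column for each of the 12 libraries. Library preparation used a KAPA mRNA HyperPrep kit, per the labels' protocols. Reads were handled with fastp and STAR on mm10, per the submitters' processing notes, and versions, the counting tool, the annotation, the strand setting and the treatment of reads with several matches were not given in the sources used here. Class II genes are polymorphic and CD-1 is outbred, and how fully reads of alleles unlike the reference were counted was not tested.

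Analysis of the deposited counts used edgeR 4.0.16 in R 4.3.3. Of 24421 symbols, filterByExpr (min.count 10, min.total.count 15) kept 15246, among them all 7 class II genes. H2-Ab1, H2-Aa and Ciita reached the filter's 0.347 CPM in 4 libraries of the compression group only, so calls of these 3 genes over Day 0 give no independent count. All 12 libraries entered 1 quasi-likelihood fit (TMM scaling, robust dispersion, group as the only term), and each comparison was called at an adjusted p under 0.05 (Benjamini-Hochberg, over the whole table). Adjusted p-values in the text are from this test unless DESeq2 is named, and fold changes are log2 values of the first group over the second. The procedure was tested on simulated data. For Pearson coefficients, log2 CPM had a prior count of 2. Genes, lists and motif letters were chosen with earlier results of these data, or the promoters, known. The genes named are the 7, every other class II gene with a count, up to 4 per list with the smallest p for compression over control, markers without a count, and the 8 genes most like the set. Outside this rule, Irf7, Flt3, Ifng, Lyz2, Fcer1g, Cdh1 and Pecam1 were chosen after their values were seen. Values of some listed marker genes are not reported here. Alternatives were RLE scaling, no filter, DESeq2 1.42.0, fits of only the 2 groups compared, the replicate number as a block, compression replicates 2 and 3 summed, and each library left out. Coordinates and exon lengths are from GENCODE (GRCm38), promoters from RefSeq. Counts of 2 compression libraries, replicates 2 and 3, were closest of the 18 pairs within groups (chi-square per gene 4.03, others 7.28 to 121) and both were kept.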

Additional observations from a re-analysis of the deposited data

Results flagged for a closer look

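H2-Eb1 in Day 0 replicate 4 stood at 0.779 CPM (26 counts), far from the 0.128 to 0.229 CPM of the other 3 Day 0 libraries. H2-Ea-ps stood at 0.971 CPM in compression replicate 4 and at 0.180 CPM in Day 0 replicate 4, and at 0 in the other libraries of those groups. A single library far from its group was looked for in 29 groups, and chance alone gives such a library in about 1 in 20 groups of normally distributed values. That share does not hold for H2-Ea-ps, where any lone count in a group otherwise at 0 is flagged. The cause of these values was not tested.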

How the results depend on the processing

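The 6 class II genes called higher in Day 2 compression over Day 0, and the 7 positive fold changes of compression over control, had the same count in all 18 alternatives. Every alternative reuses libraries through which the set was picked, so these unchanged counts are no independent support. In control over Day 0, 2 class II genes were called, 0 when only the 2 groups compared were fitted, since H2-Ab1, H2-Aa and Ciita did not then pass the filter, and 1 to 4 when a library was left out. None of the related genes was called for compression over control, except 4 with DESeq2 (Cd53, Pf4, Tap2 and B2m) and 6 without control replicate 4 (Itgam, Lyz2, Fcer1g, Tap2, Ctsz and Lgmn), a range of 0 to 6 over the libraries left out. The cause was not tested. Related genes called numbered 58 for control over Day 0 (47 to 58 with a library left out) and 75 for compression over Day 0 (66 to 82). The main fit tested 118 related genes. Among all genes it called 22.6% higher and 17.6% lower in control over Day 0, and 26.6% and 22.5% in compression over Day 0. Signs turned for H2-DMa in control over Day 0 without Day 0 replicate 4 (0.0033, with -0.13 as the lowest when a library was left out). For compression over control they turned for Fscn1 without control replicate 1 (-0.0053) or compression replicate 4 (-0.0198, highest 0.13) and for Cd22 without control replicate 1 (-0.0575, highest 0.53). Without control replicate 4 they turned for the liver genes Alb (2.33, lowest -7.10), Afp (1.23, lowest -8.49) and Trf (0.40, lowest -0.85).

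Replicate numbers did not pair the libraries: correlations of deviations between libraries with 1 number ranged from -0.181 to 0.166, and 4 of 12 were over 0.1. With the replicate number as a block 2 class II genes were called for control over Day 0 and 6 for compression over Day 0, 7 were positive for compression over control, and 0, 58 and 76 related genes were called for compression over control, control over Day 0 and compression over Day 0. Over all alternatives, calls of named related genes were lost 31 times for control over Day 0 and 22 times for compression over Day 0. Depth limits H2-Ab1, H2-Aa and Ciita most, with 12, 17 and 5 counts at Day 0.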
